A study of Mus musculus with 44 samples.

Results

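Timp1, Sema3b, Atp2b4, Etv5, Slc4a11 and Stom are 6 genes chosen by their counts in wild-type mouse CD4 T cells, which were far higher in Th1 than in Th0 cultures, and because they are not among the usual Th1 genes. All 6 were found, of 55416 genes in the count table, and all 6 passed the filter on low counts, which kept 21873 genes. The measurement was polyadenylated RNA of 44 cultures, sequenced as strand-marked libraries. Naive CD4 T cells came, by sorting, from spleens of C57BL/6NTac mice with knock-in (KI), knock-out (KO) or wild-type (WT) miR-150, and the labels say no more about the alleles. They were plated at 150000 per well on bound anti-CD3 with soluble anti-CD28 and kept for 3 days. The Th0 cultures had nothing further, the Th1 cultures also received IL-12 and anti-IL-4, and the Treg cultures received TGF-b1 and anti-IFN-g instead. The groups were Treg, Th1 and Th0 cultures of KI, KO and WT cells with 5 libraries each, except that Th0 KI had 4 (no library numbered 2). The labels do not say whether libraries of a group came from separate mice, so the p-values measure the spread between these libraries only.

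Th1 cells are the T helper cells that make interferon-gamma. IL-12 acts on them through a receptor whose inducible chain is encoded by Il12rb2 and through the factor STAT4, while TGF-beta drives the regulatory T cell factor Foxp3. miR-150 is a microRNA that is abundant in mature lymphocytes and lowers the mRNA of its targets. None of the 6 genes is a textbook marker of a T helper type. Timp1 encodes a secreted inhibitor of matrix metalloproteinases, and Sema3b a secreted class 3 semaphorin that signals through neuropilins and plexins. The membrane proteins are Atp2b4, a pump that moves calcium out of the cell, Slc4a11, a transporter of the SLC4 family best known from the corneal endothelium, and Stom, the scaffold protein stomatin, best known from the red cell membrane. Etv5 is an ETS transcription factor of the PEA3 group, known as a target of growth factor and ERK signalling.

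On GRCm38 (GENCODE M21) the genes lie on 5 chromosomes. Timp1 spans chrX:20870166-20874735 on the plus strand, inside Syn1 on the opposite strand, with which it shares 0 exon bases. The other members are on the minus strand: Sema3b at chr9:107597674-107609229, Atp2b4 at chr1:133699457-133801041, Etv5 at chr16:22381309-22439719, Slc4a11 at chr2:130684113-130697519 and Stom at chr2:35313986-35336976. No gene other than a microRNA gene, with 6 bases in Atp2b4, shares exon bases with a member.

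RefSeq (GRCm38.p6) gave 5 promoters for 4 of the 6 members, each 250 bases before and 50 after a start. The promoters of Timp1, Etv5 and Stom are shown because these 3 genes had the most similar levels across the libraries. Capitals mark CCAAT and GGGCGG on either strand, motifs that were looked for only after the promoters had been seen.
Timp1 (chrX:20869916-20870215, plus strand): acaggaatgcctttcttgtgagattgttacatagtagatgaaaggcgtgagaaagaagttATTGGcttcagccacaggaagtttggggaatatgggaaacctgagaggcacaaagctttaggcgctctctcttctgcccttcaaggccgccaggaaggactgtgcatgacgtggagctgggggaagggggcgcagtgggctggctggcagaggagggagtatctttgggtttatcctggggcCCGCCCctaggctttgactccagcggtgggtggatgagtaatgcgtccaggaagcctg
Etv5 (chr16:22439521-22439820, minus strand): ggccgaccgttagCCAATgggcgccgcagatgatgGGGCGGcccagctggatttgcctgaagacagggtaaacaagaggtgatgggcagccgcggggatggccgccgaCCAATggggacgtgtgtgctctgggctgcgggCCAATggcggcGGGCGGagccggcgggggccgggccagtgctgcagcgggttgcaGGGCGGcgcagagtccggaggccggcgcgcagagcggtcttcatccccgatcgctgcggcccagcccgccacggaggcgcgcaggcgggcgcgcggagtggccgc
Stom (chr2:35336960-35337259, minus strand): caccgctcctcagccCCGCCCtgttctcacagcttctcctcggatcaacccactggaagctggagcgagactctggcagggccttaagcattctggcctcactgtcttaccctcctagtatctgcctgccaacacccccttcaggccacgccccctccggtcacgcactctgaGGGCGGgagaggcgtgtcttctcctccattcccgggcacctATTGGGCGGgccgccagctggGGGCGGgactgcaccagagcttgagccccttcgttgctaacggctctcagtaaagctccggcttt
CCAAT was in 4 of the 5 promoters and in 37.4% of 32851 mouse promoters of the same length. GGGCGG was in 3 of the 5 and in 35.7% of all promoters. A motif on the other strand reads ATTGG or CCGCCC, and in the Stom promoter 1 GGGCGG shares bases with such an ATTGG, which gives its longest run of capitals. The Atp2b4 window, at an internal start of that gene, held neither motif. The STAT-type site TTCNNNGAA (8.3% of promoters), the T-box site AGGTGTGA (1.28%) and the AP-1 site TGANTCA (7.81%) were in 0 of the 5 in these windows, searched on both strands. TATAAA, in 13.6% of promoters, was also in 0 of the 5. The Etv5 promoter shown was 74% G or C and that of Stom 63.3%, against a median of 52.7% over all promoters, while Timp1 had 55% and Atp2b4 47.7%.

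Each library held between 60815821 and 137415965 counts, so that 3 counts, taken as the floor, came to 0.0218 to 0.0493 counts per 1000000 (CPM, scaled with TMM factors). Mir150, the gene that was altered, had 0 to 2 counts in each of 14 KI libraries, 0 counts in all 15 KO libraries and 0 to 2 counts in each of 15 WT libraries, too few in such mRNA libraries to check the genotype labels. The T cell genes Cd3e and Cd4 were present in every library. Foxp3 was 47.7 to 596 CPM in Treg cultures, 0.569 to 4.35 in Th1 and 0.362 to 3.19 in Th0 cultures. The libraries numbered KI 3, KO 2 and WT 4 differed from the rest of their groups. Cd8a, a gene of CD8 T cells, was the highest of the group in 8 of these 9 libraries, the exception being Th1 KO, where library 2 had 21.3 CPM and library 3 had 31.7 CPM. The ranges overlapped, at 20.5 to 443 CPM in those 9 libraries and 1.27 to 31.7 CPM in the other 35. Cd4 was lower in those libraries in Th0 cultures, 242 to 357 CPM against 377 to 567 CPM in the others. The same held in Treg cultures, with 289 to 440 CPM against 493 to 697 CPM. In Th1 cultures the Cd4 ranges overlapped, at 169 to 353 CPM and 340 to 485 CPM. In the Treg cultures these 3 libraries also had the lowest Foxp3, 47.7 to 77.4 CPM against 159 to 596 in the other 12, and the highest Il12rb2, 292 to 447 CPM against 3.51 to 241. Summed B cell markers were also the highest of the group in these libraries in the Th1 and Th0 cultures and in Treg KI. Where leaving them out moved a member's fold change between cultures by over 1.5 times, or a call, both values are given. In such bulk libraries fewer cells of a type and less RNA per cell cannot be told apart.

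**Figure D1:**
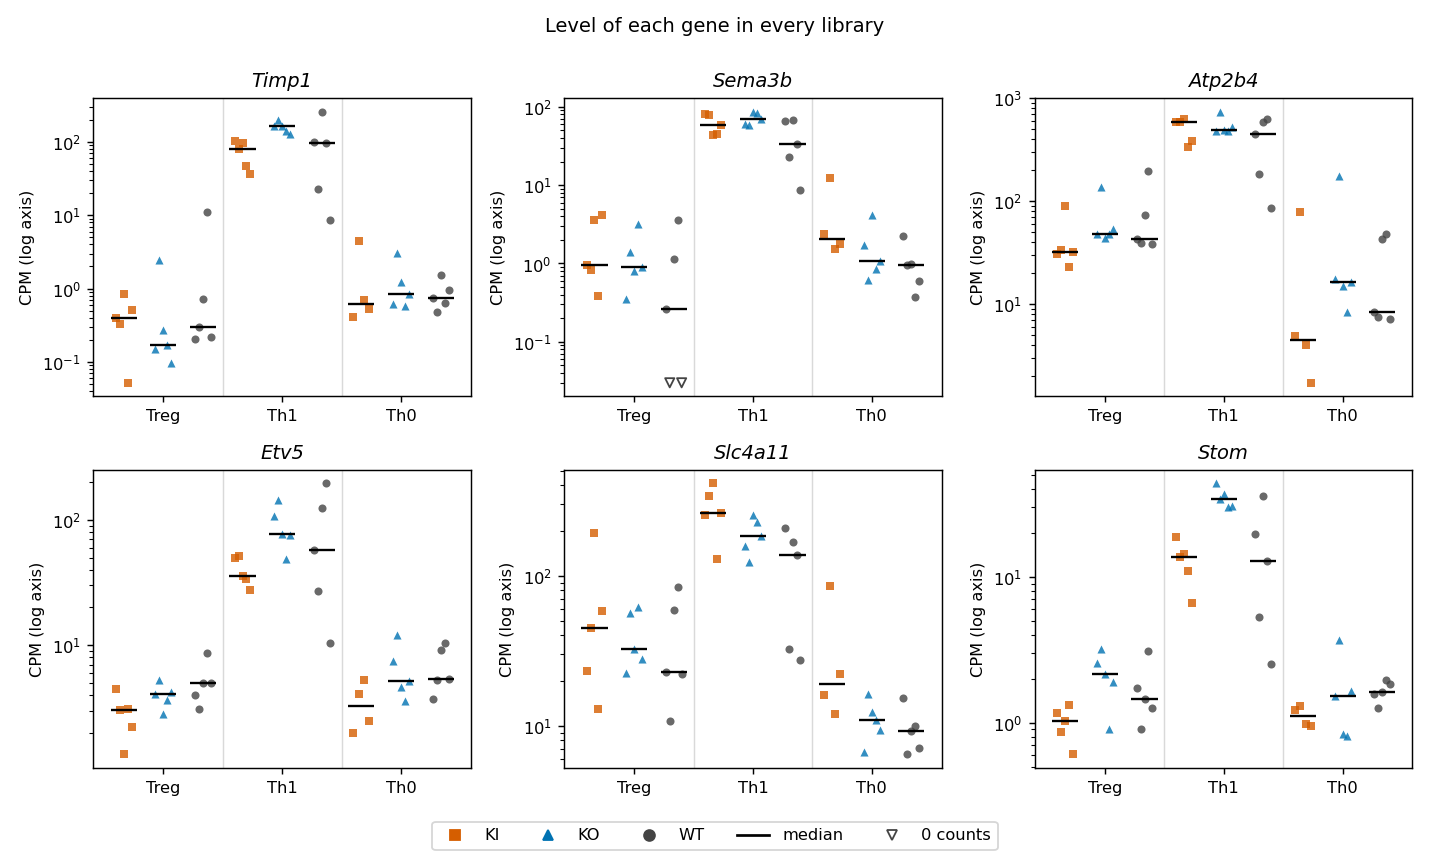
Level of each of the 6 genes in every library, in CPM on a log axis, for Treg, Th1 and Th0 cultures (left to right) of KI, KO and WT cells. Points are libraries, bars are group medians and open triangles are libraries at 0 counts. Every Th1 group lies above the Th0 group of its genotype, and the Treg medians of Slc4a11 and Atp2b4 lie between those of the other cultures.

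Th1 culture was compared with Th0 culture in KI and in KO cells, whose libraries had no part in the choice of the genes. All 6 genes rose in both genotypes, by 3.04 to 5.56 on the log2 scale in KI and by 3.55 to 7.002 in KO cells. Of all genes tested, edgeR called 2.98% higher in KI and 5.33% higher in KO cells at an adjusted p of 0.05. All 6 also passed in both genotypes without libraries KI 3, KO 2 and WT 4, by 3.59 to 7.11 in KI and 3.905 to 7.57 in KO cells. With all libraries the median log2 fold change was 3.65 over the 6 genes against -0.02 over all genes in KI cells, and 4.23 against 0.01 in KO cells. Every Th1 library lay above every Th0 library for all 6 genes in KI cells, as 5.67% of genes did, and in KO cells, as 7.12% did. The WT libraries, on which the genes were chosen, showed the same separation for all 6 (1.98% of genes), which is a description and no test. With the library number as a replicate block, 2391 genes were called in KI and 3984 in KO cells, against 1295 and 2080 without it, and all 6 members were called in both.

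Timp1 had the largest difference of the 6 in KI and in KO cells, although in KI cells this order rested on Th0 library 3. Its level was 102.5, 79.6, 97.8, 46.8 and 36.2 CPM in the Th1 KI libraries and 0.404, 4.47, 0.705 and 0.518 CPM in the Th0 KI libraries. In KO cells it was 166, 199, 167, 141.97 and 129.5 CPM in Th1 and 0.614, 3.05, 1.23, 0.573 and 0.834 CPM in Th0 cultures. The Th1 KO libraries were close to each other, and all were above every Th1 KI library. The Th1 WT libraries had 101.1, 22.6, 259, 97.6 and 8.53 CPM and the Th0 WT libraries 0.745, 0.481, 1.53, 0.643 and 0.959 CPM. The Th1 WT libraries spread over more than an order of magnitude. The log2 fold change was 5.56 ± 1.15 (SE) in KI (adjusted p = 0.00242, edgeR) and 7.002 ± 1.11 in KO cells (adjusted p = 5.53e-05), and it was 6.81 ± 1.10 in WT cells. Without libraries KI 3, KO 2 and WT 4 it was 6.94 in KI cells, against 7.11 for Atp2b4, and without Th0 KI library 3 alone 7.07, against 7.19. The 4 Th1 to Th0 ratios between same-numbered KI libraries were 21.9 to 254, and the 5 in KO cells 65.5 to 270.4. Syn1, the synapsin gene around Timp1, had group medians of 3.48 to 6.50 CPM in Th1 and 1.46 to 1.91 CPM in Th0 cultures. In Treg cultures, where Timp1 was low, the Syn1 medians were 4.46 to 5.62 CPM.

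Sema3b was low outside Th1 cultures. It had 80.9, 78.4, 43.2, 45.6 and 58.9 CPM in Th1 KI against 2.36, 12.3, 1.54 and 1.75 CPM in Th0 KI libraries. In KO cells the values were 59.8, 58.4, 86.5, 83.6 and 69.4 CPM in Th1 and 1.75, 0.614, 4.2, 0.841 and 1.08 CPM in Th0 cultures. The closest approach of the groups was in KI cells, where Th0 library 3 reached 12.3 CPM. WT cells had 65.98, 22.6, 67.02, 33.5 and 8.72 CPM in Th1 and 2.26, 0.945, 0.983, 0.376 and 0.593 CPM in Th0 cultures. It rose by 3.77 ± 0.94 in KI (adjusted p = 0.0132, edgeR) and by 5.39 ± 0.93 in KO cells (adjusted p = 0.00016), with 5.26 ± 0.93 in WT cells. Without libraries KI 3, KO 2 and WT 4 the KI difference was 5.16 (adjusted p = 0.00143), and without Th0 KI library 3 alone 5.05. Without Th0 KI library 1 the KI difference, 3.58, no longer passed (adjusted p = 0.0734). This was the one loss of a call among the 378 alternatives computed for the members in the Th1 against Th0 and the Treg against Th1 comparisons.

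Atp2b4 and Slc4a11 followed Timp1 in level in Th1 cultures when levels are set per kilobase of exon. The median of Atp2b4 over the Th1 libraries was 40.6 CPM per kilobase, below the 114 of Timp1, near the 37 of Slc4a11 and above the 12.5 of Sema3b, the 12.5 of Etv5 and the 6.598 of Stom. In Th1 KI cells the median of Slc4a11, 52.7 CPM per kilobase, was above the 47.9 of Atp2b4. Atp2b4 reached 587, 594, 627, 339 and 389 CPM in Th1 KI and 4.88, 77.5, 3.997 and 1.7 CPM in Th0 KI libraries. In KO cells it had 482, 741, 497, 482 and 530.2 CPM in Th1 and 17.6, 176, 14.9, 8.24 and 16.3 CPM in Th0 cultures. In the Th0 groups 1 library each lay far above the rest, KI 3 and KO 2, which are among those with high Cd8a. In WT cells the values were 448, 182, 587, 627 and 85.1 CPM in Th1 and 8.37, 7.48, 43.2, 47.5 and 7.19 CPM in Th0 cultures. The rise was 4.52 ± 0.98 in KI (adjusted p = 0.00386, edgeR) and 3.55 ± 0.85 in KO cells (adjusted p = 0.00561), against 4.08 ± 0.87 in WT cells. Without the libraries KI 3, KO 2 and WT 4 it was 7.11 in KI and 5.15 in KO cells. Leaving out Th0 KI library 3 alone gave 7.19, and leaving out Th0 KO library 2 alone gave 5.28.

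Etv5 was present at a low level in all cultures and stood out in Th1. The Th1 KI libraries had 50, 51.4, 35.6, 33.6 and 27.5 CPM and the Th0 KI libraries 2.01, 4.07, 5.32 and 2.5 CPM. In KO cells it had 106.9, 143.1, 77.1, 48.5 and 75.7 CPM in Th1 and 7.44, 12.2, 4.66, 3.59 and 5.2 CPM in Th0 cultures. Its same-numbered ratios in KO cells were the tightest of the 6 genes there, 11.8 to 16.5. WT cells had 57.8, 27, 124.6, 195 and 10.5 CPM in Th1 and 3.76, 5.27, 9.19, 10.4 and 5.37 CPM in Th0 cultures, and the lowest Th1 library was barely above the highest Th0 library. It rose by 3.51 ± 0.55 in KI (adjusted p = 9.44e-05, edgeR) and by 3.77 ± 0.50 in KO cells (adjusted p = 3.60e-06), with 3.61 ± 0.50 in WT cells.

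Slc4a11 had the highest Th0 level of the 6 per kilobase of exon, a median of 2.29 CPM. Its rise in KI cells was the smallest of the 6 with all libraries, but not without library KI 3. It had 254, 339, 412, 129.8 and 263 CPM in Th1 KI and 16.02, 86.03, 11.9 and 22 CPM in Th0 KI libraries. In KO cells it had 158.5, 123.2, 254, 227 and 185 CPM in Th1 and 6.73, 16.4, 12.4, 10.9 and 9.42 CPM in Th0 cultures. KI library 3 was the highest in both cultures of KI cells. The WT libraries had 207, 32.5, 168, 138.5 and 27.4 CPM in Th1 and 15.4, 6.44, 9.17, 9.999 and 7.13 CPM in Th0 cultures. The log2 fold change was 3.04 ± 0.68 in KI (adjusted p = 0.00524, edgeR) and 4.08 ± 0.65 in KO cells (adjusted p = 6.06e-05), and 3.58 ± 0.64 in WT cells. Without libraries KI 3, KO 2 and WT 4 it was 3.91 in KI cells, above the 3.65 of Etv5 and the 3.59 of Stom, and without Th0 KI library 3 alone it was 4.09.

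Stom had the lowest level of the 6 per kilobase of exon in Th1 cultures and the smallest biological coefficient of variation, 0.466 against 0.488 to 0.929 in the other 5. It had 18.7, 13.6, 14.3, 11.04 and 6.64 CPM in Th1 KI and 1.22, 1.29, 0.98 and 0.951 CPM in Th0 KI libraries. In KO cells the values were 43.7, 34.3, 37, 30.1 and 30.8 CPM in Th1 and 1.53, 3.67, 0.833, 0.813 and 1.64 CPM in Th0 cultures. The highest Th0 KO library, library 2, was far below the lowest Th1 KO library. WT cells had 19.5, 5.27, 36.1, 12.8 and 2.52 CPM in Th1 and 1.57, 1.27, 1.63, 1.96 and 1.84 CPM in Th0 cultures. The rise was 3.53 ± 0.52 in KI (adjusted p = 4.78e-05, edgeR) and 4.38 ± 0.49 in KO cells (adjusted p = 1.54e-07), against 3.21 ± 0.46 in WT cells. Among the genes ordered by their WT difference, those next to Stom stood at 3.21 to 3.22 above it and 3.19 to 3.20 below it, since the choice had no stated threshold.

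**Figure D2:**
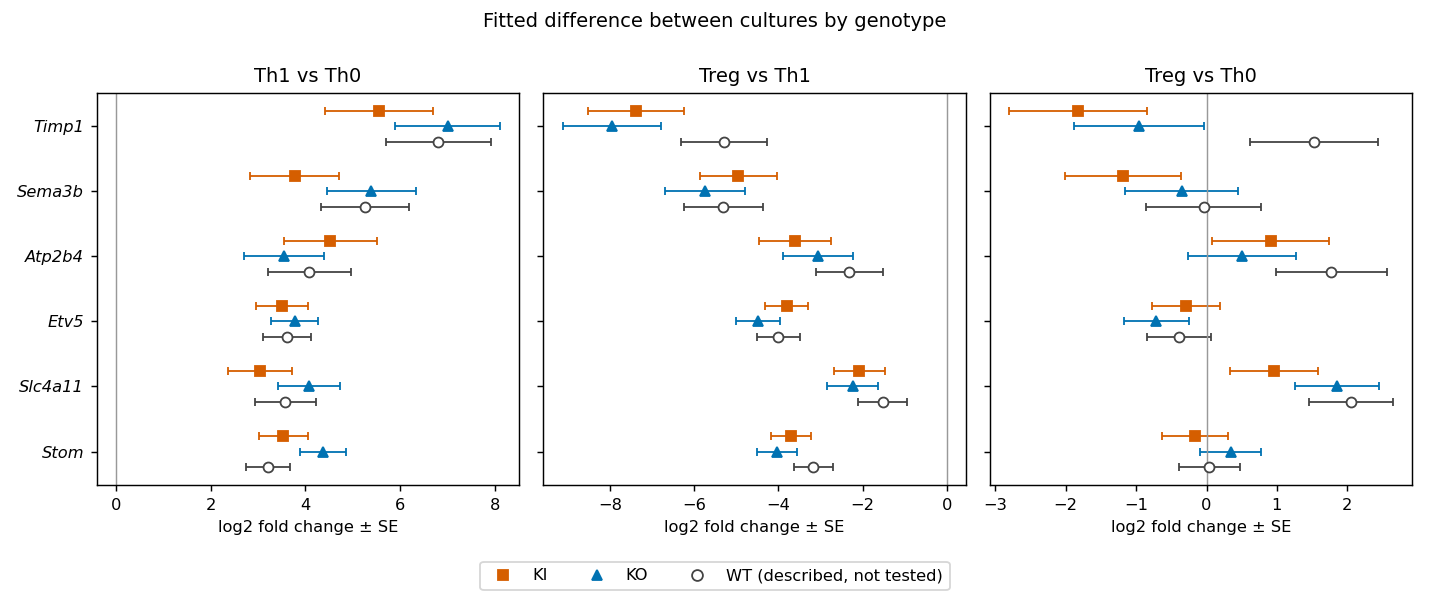
Fitted log2 fold changes with SE for the 6 genes in the 3 comparisons of cultures, in KI, KO and WT cells. Th1 against Th0 is positive and Treg against Th1 negative for all 6 genes in all 3 genotypes, and Treg against Th0 lies on both sides of 0.

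**Figure D3:**
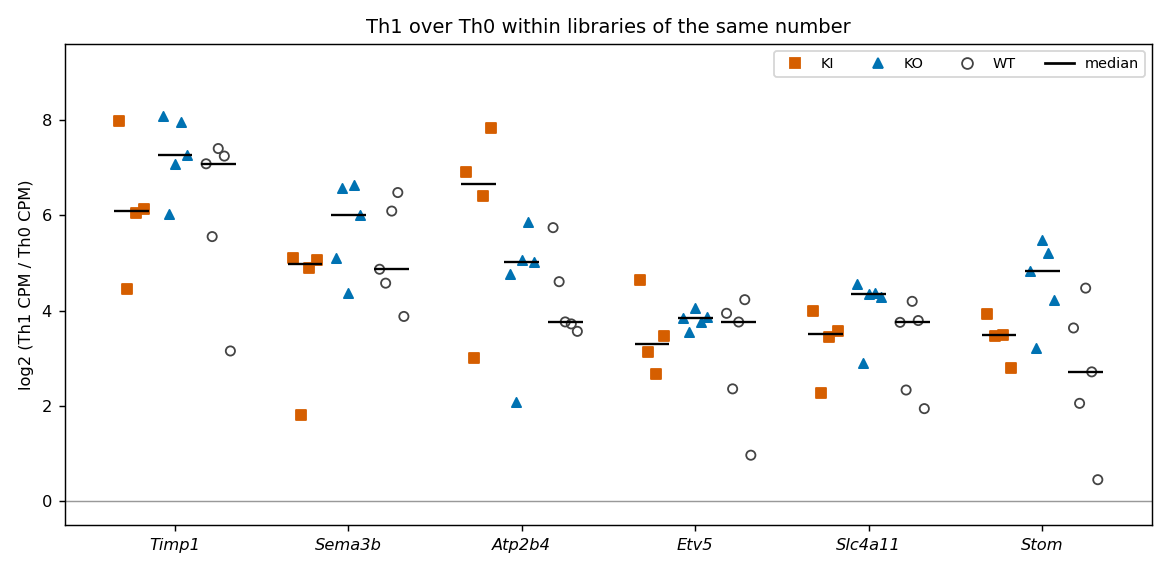
Ratio of Th1 to Th0 CPM on a log2 axis between libraries of the same genotype and number, for 4 KI, 5 KO and 5 WT pairs, with medians as bars. All ratios are above 0 on this axis, and WT ratios reach lower than KO ratios for 5 of the 6 genes.

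The listed relatives of each member were mostly not called, and neither were most genes of the whole table. Over all genes tested, edgeR called 2.98% higher and 2.94% lower in Th1 KI, and 5.33% higher and 4.18% lower in Th1 KO cells. Among 23 other TIMP and metalloproteinase genes tested, 1 was higher in Th1 KI and 2 in Th1 KO cells, and 0 were lower. Both are metalloproteinase genes, Mmp10 (5.27 ± 1.21 in KI and 3.80 ± 0.98 in KO) and, in KO cells, Mmp7 (4.41 ± 1.31). Timp2, which encodes another inhibitor of the same family, had -0.07 ± 0.63 in KI and -0.57 ± 0.59 in KO cells and did not pass. The median over these 23 genes was 0.08 in KI and -0.24 in KO cells.

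Of 9 other class 3 semaphorin and receptor genes, 1 was higher and 1 lower in KI cells, and 2 were higher and 1 lower in KO cells. Sema3f, a secreted semaphorin like Sema3b, rose by 4.90 ± 1.07 in KI and 4.20 ± 0.94 in KO cells, and averaged 4.44 ± 2.58 CPM in Th1 KI against 0.145 ± 0.169 CPM in Th0 KI libraries (SD, n = 5 and 4). Sema3c also passed in KO cells, at 4.52 ± 1.20. The receptor gene Plxnd1 fell in both, by 1.06 ± 0.24 in KI and 1.34 ± 0.23 in KO cells, and the neuropilin gene Nrp1 did not pass in either (-0.11 ± 0.63 in KI and -0.44 ± 0.59 in KO). The medians were -0.11 in KI and 0.09 in KO cells.

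For Atp2b4, 0 of 8 other calcium pump genes passed in KI cells (edgeR, with 1 at an unadjusted p of 0.05), and in KO cells 1 passed and was lower, Atp2c1 (-0.38 ± 0.09), a pump of the Golgi. The widely used plasma membrane pump gene Atp2b1 had -0.22 ± 0.17 in KI and -0.40 ± 0.16 in KO cells and did not pass. The medians over the 8 genes were -0.21 in KI and -0.29 in KO cells.

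Of 16 other PEA3 and ERK feedback genes, Spred3, a Sprouty-related inhibitor of ERK signalling, rose with Etv5, by 2.38 ± 0.71 in KI and 2.13 ± 0.64 in KO cells. Phlda1 fell in both, by 1.73 ± 0.30 in KI and 2.46 ± 0.30 in KO cells. In KO cells Spred1 (-0.75 ± 0.23) and the phosphatase gene Dusp4 (-0.74 ± 0.18) were also lower. Etv4, another PEA3 gene, had -1.19 ± 0.42 in KI and -1.07 ± 0.40 in KO cells (adjusted p = 0.0803 and 0.0804, edgeR). The medians over the 16 genes were -0.27 in KI and -0.21 in KO cells.

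Of 8 other SLC4 genes, 0 passed in KI cells (edgeR, with 0 at an unadjusted p of 0.05) and 1, the sodium-dependent transporter gene Slc4a8, was higher in KO cells (0.65 ± 0.20). Among 9 other stomatin-related genes 2 were higher in KI and 3 in KO cells, and 0 were lower. Flot1 and Flot2, which encode the flotillins of membrane rafts, rose by 2.11 ± 0.48 and 1.19 ± 0.24 in KI and by 2.13 ± 0.45 and 1.37 ± 0.22 in KO cells, and Stoml1 passed in KO cells at 1.22 ± 0.29. The medians were 0.11 in KI and 0.00 in KO cells for the SLC4 genes, and 0.05 in KI and -0.25 in KO cells for the stomatin relatives.

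**Figure D4:**
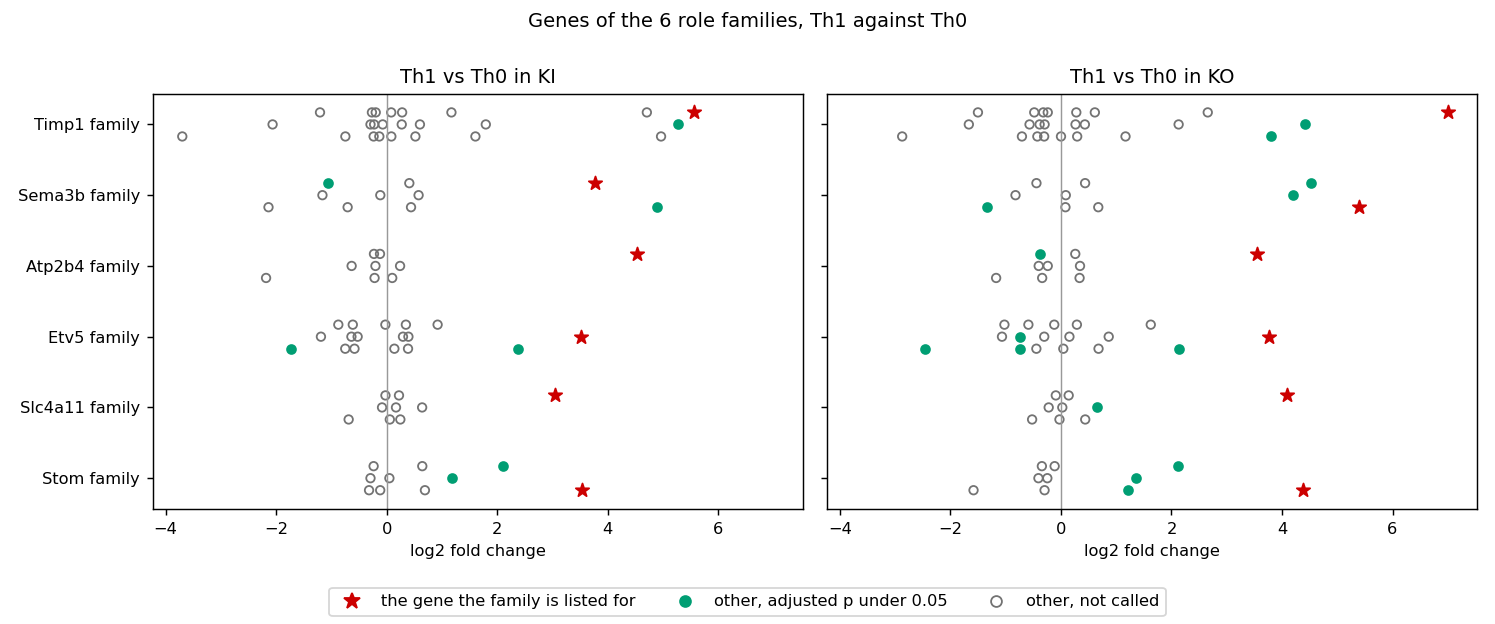
Log2 fold changes of Th1 against Th0 culture in KI (left) and KO cells (right) for the genes of the 6 families, 1 row per family. Red stars are the 6 genes themselves, filled points are relatives past an adjusted p of 0.05 and open points are relatives that did not pass. The stars lie farthest to the right of their family in 5 of 6 rows in KI and in all 6 rows in KO cells.

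Of the 12 T helper genes listed, 1 was higher and 1 lower in Th1 KI cells, and 2 were higher and 2 lower in Th1 KO cells. The IL-18 receptor gene Il18r1 rose by 2.89 ± 0.44 in KI and 3.09 ± 0.41 in KO cells, and the Th2 factor gene Gata3 fell by 2.68 ± 0.42 in KI and 4.10 ± 0.44 in KO cells. Hlx, a homeobox factor gene (3.73 ± 1.08), and the Th2 cytokine gene Il13 (-4.97 ± 1.54) passed in KO cells as well. The Th1 genes Ifng, Tbx21 and Il12rb2 had wide errors and did not pass. These errors rest on 1 estimate of the spread per gene over all 9 groups, not on the Th1 and Th0 libraries alone. Ifng, for example, ran from 0.623 to 846 CPM in Treg WT libraries. In KI and KO cells Ifng had 1.74 ± 1.47 and 2.17 ± 1.38, and Tbx21 0.65 ± 0.81 and 0.29 ± 0.76. Il12rb2 had 1.13 ± 0.87 and 0.76 ± 0.80. Still, every Th1 KO library lay above every Th0 KO library for Ifng (lowest Th1 1235 CPM, highest Th0 474.3 CPM). The same held in KI cells for Tbx21 (85.51 and 74.71 CPM) and Il12rb2 (574.4 and 406.6 CPM). The groups overlapped for Ifng in KI cells and for Tbx21 and Il12rb2 in KO cells.

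Markers of other cells did not pass in either genotype, with 0 called of 8 CD8 T and NK cell, 10 B cell, 12 myeloid, 11 erythroid and platelet and 6 stromal genes tested by edgeR. At an unadjusted p of 0.05 there were 1, 0, 0, 5 and 0 in KI and 1, 1, 1, 0 and 0 in KO cells, in that order of lists. The median log2 fold changes were -1.31, -0.73, 0.05, -1.74 and -0.50 in KI and -1.14, -0.41, 0.14, -1.01 and 0.00 in KO cells. Summed CD8 T and NK cell markers were 62.4 to 311 CPM in Th1 KI and 164 to 444 CPM in Th0 KI libraries. In KO cells the sums were 58.9 to 149.9 CPM in Th1 and 126.2 to 337 CPM in Th0 libraries. The most abundant gene of this list was Eomes in Th1 KI, Th0 KI and Th0 KO and Klrk1 in Th1 KO libraries. The median of Cd8a itself was 6.38 CPM in Th1 KI and 10.4 CPM in Th0 KI libraries. In KO cells it was 8.1 CPM in Th1 and 5.35 CPM in Th0 libraries. B cell markers summed to 153 to 1453 CPM in Th1 KI and 281 to 2028 CPM in Th0 KI, and to 55.3 to 491 CPM in Th1 KO and 166 to 755 CPM in Th0 KO libraries. Erythroid and platelet markers, of interest beside Stom, summed to 3.65 to 8.002 CPM in Th1 KI and 5.64 to 20.2 CPM in Th0 KI, and to 6.43 to 13.4 CPM in Th1 KO and 14.7 to 21.3 CPM in Th0 KO libraries. Stromal and endothelial markers, of interest beside Timp1, summed to 26.3 to 39.7 CPM in Th1 KI and 36.4 to 46.7 CPM in Th0 KI, and to 29.1 to 71.8 CPM in Th1 KO and 40.01 to 49.5 CPM in Th0 KO libraries, with Col3a1 at 0 in all 4 groups. Myeloid markers summed to 9.37 to 34.7 CPM in Th1 KI and 8.75 to 26.01 CPM in Th0 KI, and to 4.94 to 13.8 CPM in Th1 KO and 5.28 to 8.39 CPM in Th0 KO libraries, with Siglech at 0 in all 4. The part of these cells in the Th1 differences was not tested.

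Treg culture was then compared with Th1 culture. All 6 genes fell in Treg cultures of both genotypes, by 2.08 to 7.38 on the log2 scale in KI and by 2.24 to 7.96 in KO cells, where 15.8% and 15% of all genes were called lower. No Treg library reached the lowest Th1 library for 5 of the 6 genes in KI (12% of genes) and for all 6 in KO cells (11%). Slc4a11 in KI cells was the exception, since Treg library 3 stood at 192 CPM and Th1 library 4 at 129.8 CPM. In WT cells, whose Th1 libraries were used in the choice, 2 genes, Sema3b and Etv5, separated fully (5.7% of genes).

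Timp1 fell the most, with a fitted log2 fold change of -7.38 ± 1.14 in KI (adjusted p = 4.73e-06, edgeR) and -7.96 ± 1.16 in KO cells (adjusted p = 2.20e-06). Its Treg values were 0.394, 0.326, 0.853, 0.0516 and 0.515 CPM in KI, 0.147, 2.49, 0.274, 0.17 and 0.0969 CPM in KO and 0.207, 0.297, 0.717, 11.1 and 0.215 CPM in WT cells. Those above 1 CPM were KO library 2 and WT library 4. Slc4a11 fell the least, with -2.08 ± 0.60 in KI (adjusted p = 0.00668, edgeR) and -2.23 ± 0.60 in KO cells (adjusted p = 0.00429). It was 23.3, 44.97, 192, 12.9 and 58.2 CPM in Treg KI, 22.5, 56.4, 32.3, 62.2 and 27.99 CPM in Treg KO and 22.8, 10.8, 59.2, 84.2 and 22.3 CPM in Treg WT libraries. The 4 genes between them had log2 fold changes of -4.95 (Sema3b), -3.61 (Atp2b4), -3.80 (Etv5) and -3.69 (Stom) in KI and of -5.75, -3.05, -4.48 and -4.03 in KO cells. Without libraries KI 3, KO 2 and WT 4, Timp1 was -9.80 in KO and Slc4a11 -2.86 in KI cells. Over the 15 Treg libraries Sema3b ran from 0 to 4.11 CPM, Stom from 0.605 to 3.19 CPM and Etv5 from 1.35 to 8.70 CPM. Sema3b was at 0 counts in Treg WT libraries 2 and 5, against a floor of 3 counts of 0.0218 to 0.0493 CPM.

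Relatives of the members were called in both directions between Treg and Th1 cultures, as were many genes of the whole table. Over all genes tested, edgeR called 17% higher and 15.8% lower in Treg KI, and 15% higher and 15% lower in Treg KO cells. Timp2 was higher in Treg cultures, by 5.61 ± 0.70 in KI and 4.67 ± 0.67 in KO cells, and averaged 67.2 ± 36.1 CPM in Treg KI against 1.37 ± 0.318 CPM in Th1 KI libraries (SD, n = 5 each). Timp3, another inhibitor gene of the family, had the sign of Timp1, with -2.92 ± 1.17 in KI (adjusted p = 0.0505, edgeR) and -3.81 ± 1.17 in KO cells (adjusted p = 0.012). Of the 23 TIMP and metalloproteinase genes other than Timp1, 6 were higher and 3 lower in Treg KI, and 7 higher and 4 lower in Treg KO cells. Sema3f fell with Sema3b (-5.25 ± 0.99 in KI and -4.38 ± 0.95 in KO), while the receptor gene Nrp1, known from regulatory T cells, rose by 2.65 ± 0.63 in KI and 2.57 ± 0.62 in KO cells. Etv1, of the same group as Etv5, rose by 4.03 ± 1.002 in KI and 3.06 ± 0.95 in KO cells, and Spred3 fell by 2.32 ± 0.65 in KI and 2.67 ± 0.66 in KO cells. Flot1 fell with Stom, by 1.75 ± 0.44 in KI and 1.94 ± 0.44 in KO cells, and 5 of the 9 stomatin relatives were lower in Treg KI and 4 in Treg KO cells, with 0 higher.

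Some markers of other cells were also called between Treg and Th1 cultures, where the shares over all genes are those just given. Of 12 myeloid genes 5 were higher in Treg KI and 6 in Treg KO cells, S100a8, S100a9 and Lyz2 in both, and 1, Flt3, was lower in KO cells. The myeloid list summed to 13.8 to 47.4 CPM in Treg KI against 9.37 to 34.7 CPM in Th1 KI libraries, and to 11.4 to 29.6 CPM in Treg KO against 4.94 to 13.8 CPM in Th1 KO libraries. The stromal and endothelial list, whose most abundant gene was Pecam1, summed to 55.7 to 184.8 CPM in Treg KI against 26.3 to 39.7 CPM in Th1 KI, and to 56.5 to 199 CPM in Treg KO against 29.1 to 71.8 CPM in Th1 KO libraries. Of its 6 genes tested Pecam1 was higher in both genotypes, Lum was lower in both and Kdr was lower in KI cells, and Col3a1 and Dcn were at 0 in all Treg KI and Treg KO libraries. Of 10 B cell genes 1, Ighm, was higher in both genotypes, with sums of 560.7 to 1322 CPM in Treg KI against 153 to 1453 CPM in Th1 KI and 307 to 669.8 CPM in Treg KO against 55.3 to 491 CPM in Th1 KO libraries. Of 11 erythroid and platelet genes 2 were lower in Treg KO cells (Ppbp and Itga2b), and the list had sums of 2.87 to 9.64 CPM in Treg KI against 3.65 to 8.002 CPM in Th1 KI and 2.17 to 9.80 CPM in Treg KO against 6.43 to 13.4 CPM in Th1 KO libraries. Of 8 CD8 T and NK cell genes 0 passed by edgeR, with 2 in KI and 0 in KO cells at an unadjusted p of 0.05, and they summed to 34.1 to 573 CPM in Treg KI against 62.4 to 311 CPM in Th1 KI and 57.4 to 362 CPM in Treg KO against 58.9 to 149.9 CPM in Th1 KO libraries. The part of these cells in the differences was not tested.

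Treg culture was also compared with Th0 culture, and IL-12 was added to neither. Against Th0, 0 of the 6 genes passed in KI cells by edgeR, 0 at an unadjusted p of 0.05 and 0 by DESeq2, where 33.6% of all genes were called in either direction. In KO cells 1 passed, where 33% of all genes were called. That gene was Slc4a11, which rose by 1.85 ± 0.60 in Treg KO cells (adjusted p = 0.0148, edgeR), with all 5 Treg KO libraries above all 5 Th0 KO libraries (11.6% of genes; edgeR called 17.1% higher). In KI cells its difference was 0.96 ± 0.62 (adjusted p = 0.247), and 1.98 (adjusted p = 0.0229) without Th0 KI library 3 alone, but 1.06 (adjusted p = 0.164) without all libraries numbered KI 3, KO 2 and WT 4. Atp2b4 in Treg cultures was 30.5, 33.7, 89.2, 22.9 and 31.7 CPM in KI, 47.9, 136.3, 43.9, 48.2 and 53.7 CPM in KO and 43.1, 39.4, 73.4, 195 and 37.8 CPM in WT cells, mostly above the Th0 values given earlier. Its difference was 0.91 ± 0.83 in KI and 0.50 ± 0.77 in KO cells and did not pass (adjusted p = 0.428 and 0.666). With the replicate block it was 2.07 in KI (adjusted p = 0.00554) and 1.25 in KO cells (adjusted p = 0.0445), and it passed. Without libraries KI 3, KO 2 and WT 4 it was 3.07 in KI (adjusted p = 9.4e-05) and 1.75 in KO cells (adjusted p = 0.00432). Timp1 in KO cells had -0.96 ± 0.93 with all libraries, -2.24 without those libraries (adjusted p = 0.0198) and -2.88 without Treg KO library 2 alone (adjusted p = 0.0305). In KI cells it had -1.82 ± 0.98 (adjusted p = 0.155). The remaining values in KI and KO cells were -1.18 and -0.35 for Sema3b, -0.29 and -0.71 for Etv5 and -0.16 and 0.34 for Stom. The KI values without libraries KI 3, KO 2 and WT 4 were -0.75 for Timp1 and -0.25 for Sema3b.

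Some genes of the marker lists were called in this comparison too. Over all genes tested, edgeR called 16.7% higher and 16.9% lower in Treg KI, and 17.1% higher and 15.9% lower in Treg KO cells. Of 12 myeloid genes 4 were higher in Treg KI and 4 in Treg KO cells, S100a8, S100a9 and Lyz2 in both, and 0 were lower. Of 11 erythroid and platelet genes 5 were lower in Treg KI and 3 in Treg KO cells, Pf4 and Ppbp in both. Of 8 CD8 T and NK cell genes 3 were lower in Treg KI (Ncr1, Klrb1c and Eomes) and 1 in Treg KO cells (Eomes). Of 6 stromal and endothelial genes Pecam1 was higher and Lum and Kdr lower in both genotypes, and of 10 B cell genes 0 passed in KI (edgeR, with 0 at an unadjusted p of 0.05) and 1, Igkc, was lower in KO cells. The Th0 sums of these lists are those given for Th1 against Th0. Their part in the difference of Slc4a11 was not tested.

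In the 5 comparisons of genotypes that used no library of the choice, 0 of the 6 genes passed by edgeR or by DESeq2. At an unadjusted p of 0.05 there were 2 of the 6 for KI against KO in Th1 (Stom and Etv5) and 1 in each of the other 4 comparisons. Few genes of the whole table passed either, namely 37 (0.169%) for KO against WT in Treg, 5 (0.0229%) for KI against KO in Treg, and 0 (0%) for KI against WT in Treg and for KI against KO in Th1 and Th0. At an unadjusted p of 0.05 those 3 comparisons had 1758, 1296 and 2684 genes, and DESeq2 called 5, 42 and, for Th0, 83 higher and 32 lower genes. In Th1 cultures the fitted log2 difference of Stom between KI and KO cells was -1.45 ± 0.43 (adjusted p = 0.509, edgeR). All 5 Th1 KI libraries of Stom (6.64 to 18.7 CPM) lay below all 5 Th1 KO libraries (30.1 to 43.7 CPM). Timp1 showed the same order, 36.2 to 102.5 CPM in Th1 KI and 129.5 to 199 CPM in Th1 KO libraries, with a log2 difference of -1.15 ± 0.86 (adjusted p = 1, edgeR). Such a full separation with KI lower held for 1.22% of all genes. Etv5 differed by -1.19 ± 0.46 (adjusted p = 0.684), with groups that overlapped, and Slc4a11 by 0.56 ± 0.58, Sema3b by -0.22 ± 0.77 and Atp2b4 by -0.11 ± 0.77. In Treg cultures Stom differed by -1.11 ± 0.44 between KI and KO cells (adjusted p = 0.516), and in Th0 cultures Slc4a11 by 1.60 ± 0.62 (adjusted p = 0.273). Of 10 B cell marker genes 0 passed for KI against KO by edgeR. At an unadjusted p of 0.05 there were 6 in Th1, 7 in Th0 and 8 in Treg cultures. The median log2 differences of that list were 1.85, 2.13 and 2.12. For KI against WT in Treg there were 5 (median 1.72), and for KO against WT 0 (median -0.35). The other marker lists had 0 to 2 such genes in each of these comparisons. The part of these cells in the differences between genotypes was not tested.

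Against WT cells in Treg cultures, the largest member differences were those of Timp1, -2.53 ± 0.96 for KI and -1.96 ± 0.93 for KO (adjusted p = 0.587 and 0.470, edgeR). Treg WT library 4, at 11.1 CPM, carried that direction, since without it the differences were 0.24 for KI and 0.80 for KO. The other 5 genes lay between -0.90 and 0.99 for KI and between -0.36 and 0.41 for KO. Comparisons of KI and KO with WT cells in Th1 and Th0 cultures share libraries with the choice of the genes and are described only. Their log2 differences ran from -1.07 (Etv5) to 1.29 (Slc4a11) for KI in Th1, from 0.12 (Etv5) to 1.21 (Stom) for KO in Th1, from -0.97 (Etv5) to 2.13 (Sema3b) for KI in Th0 and from -0.04 (Etv5) to 1.03 (Atp2b4) for KO in Th0. The size of the Th1 rise was also compared between KI and KO cells. The difference, KI minus KO, ran from -1.63 ± 1.13 for Sema3b to 0.97 ± 1.13 for Atp2b4, and 0 of 6 passed by edgeR or DESeq2, as did 0 (0%) of all genes by edgeR. At an unadjusted p of 0.05 there were 0 of the 6 and 639 of all genes, and DESeq2 called 5 genes.

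Among the Th1 WT libraries the 6 genes were low in the same libraries. Th1 WT library 5 was the lowest of its group for all 6 genes, and library 2 was the next lowest for all 6. Relative to the median of the 15 Th1 libraries, library 5 was lower by 2.29 (Etv5) to 3.57 (Timp1) on the log2 scale, and library 2 by 0.93 (Etv5) to 2.51 (Slc4a11). Il12rb2, the IL-12 receptor gene, was also lowest there, at 165 CPM in library 5 and 337 CPM in library 2 against 649.9 to 863 CPM in the other 3 Th1 WT libraries. Libraries 2 and 5 were also the lowest for Il12rb2 in Treg WT (4.57 and 3.51 CPM against 19.9 to 319.8 CPM in the other 3) and in Th0 WT cultures (76 and 52.6 CPM against 344 to 379 CPM). In Treg WT each of these libraries was among the lowest 2 for 5 of the 6 genes, and in Th0 WT library 2 was so for 5 and library 5 for 3. The Th1 factor gene Tbx21 and Ifng in library 5 stood at -0.36 and -0.41 relative to the median Th1 library, and Il18r1 at -0.13. In library 2 Tbx21 stood at 0.36, Ifng at -0.11 and Il18r1 at 0.05. Gata3 lay above the median in both, at 0.999 in library 5 and 0.74 in library 2. In the Th1 KO group 4 different libraries were the lowest for at least 1 of the 6 genes.

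**Figure D5:**
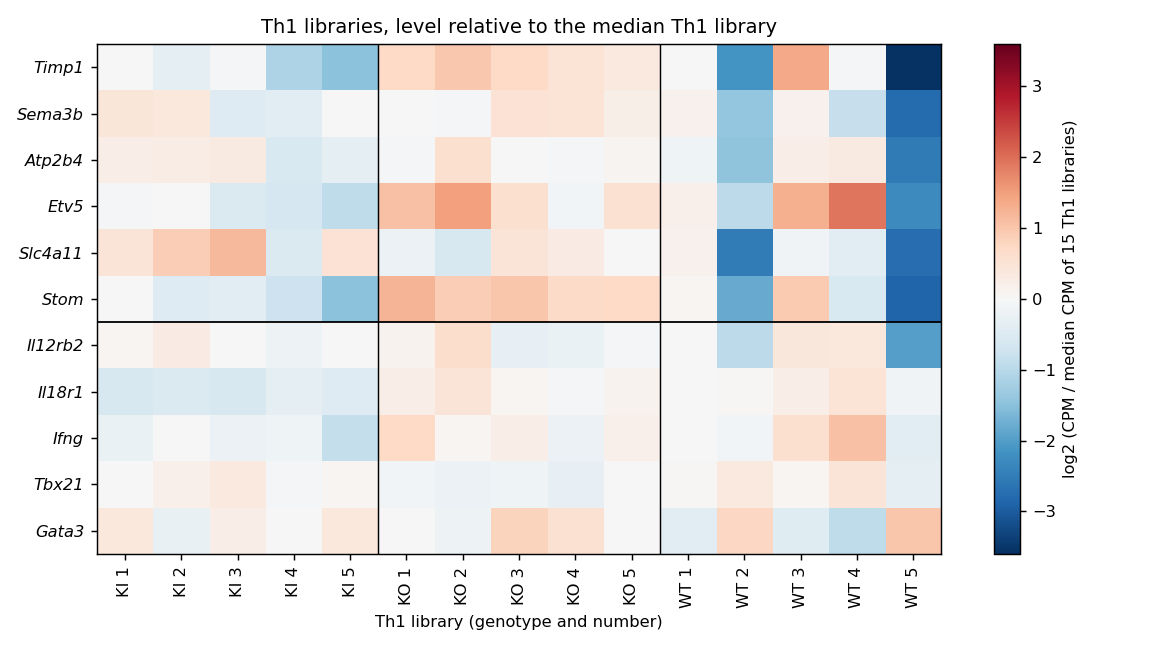
Level of the 6 genes (above the line) and 5 T helper genes (below it) in the 15 Th1 libraries, as log2 of CPM over the median Th1 library, KI, KO and WT from left to right. WT libraries 2 and 5 are blue for all 6 genes and for Il12rb2, near white for Il18r1 and light red for Gata3.

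Across all 44 libraries the 15 pairs among the 6 genes had Pearson correlations of log2 CPM from 0.654 (Etv5 and Slc4a11) to 0.943 (Etv5 and Stom), with a median of 0.819. After the mean of each of the 9 groups was removed the correlations were 0.17 (Sema3b and Etv5) to 0.748 (Timp1 and Slc4a11), with a median of 0.587. The libraries share culture, depth and number, so these are descriptions. Timp1, Etv5 and Stom were the members with the most similar levels, at 0.921 to 0.943. The search for similar genes took in 10361 genes whose log2 CPM averaged 1 or more. Ern1, which encodes a sensor of the unfolded protein response, was the most similar gene to Etv5 (0.956) and Stom (0.945) and the next after Tnip2 (0.955) for Timp1 (0.952). Gnb5, a G protein beta subunit gene, came close for the same 3 genes (0.939 to 0.952). Atp2b4 was most similar to Flot1 (0.93), Neb (0.903) and Dennd11 (0.898), and Slc4a11 to Zfp473 (0.938), Usp35 (0.929) and Lpp (0.905). Sema3b was nearest to Gmppb (0.924), Akt2 (0.92) and Kcnd1 (0.918). Ern1 rose by 2.62 ± 0.36 in Th1 KI cells and by 2.66 ± 0.33 in Th1 KO cells, and Gnb5 by 2.48 ± 0.29 and 2.53 ± 0.26. Both were picked for likeness to the members over these same libraries, so their rises are descriptions and no test.

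The order of the 9 groups by median was similar for the 6 genes. The 3 Th1 groups held the 3 highest places for every gene. The group in place 3 overlapped that in place 4 for Sema3b, Atp2b4, Slc4a11 and Stom, where it was Th1 WT, but not for Timp1 and Etv5, where it was Th1 KI. For Stom alone the first group, Th1 KO, did not overlap the next, Th1 KI. The Treg groups came next, in places 4 to 6, for Atp2b4 and Slc4a11, and last, in places 7 to 9, for Timp1. For Sema3b, Etv5 and Stom the Treg and Th0 groups were mixed, and among the 6 lower groups each overlapped the next for all 6 genes.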

How the data were processed

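Strand-marked mRNA libraries (2 reads of 150 bp) were deposited as a table of raw counts per gene and lane. Per the file headers the authors trimmed the reads and aligned them with STAR. The submitters' processing notes name GRCh38, although the gene IDs are those of mouse. Of the counting tool, annotation and strand setting nothing was stated, and a table of normalized counts was not used. Both lanes were summed per library, and no 2 of the 86 library pairs within groups were as close as copies of 1 library would be.

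The 6 members, the gene lists and the tests were chosen with earlier results of these data known. Counts of 44 libraries were scaled by TMM and fitted in edgeR 4.0.16 (R 4.3.3) with 9 group means. The fit used the quasi-likelihood test, low counts removed by group and Benjamini-Hochberg adjustment over 21873 genes at 0.05. Contrasts with Th1 WT or Th0 WT libraries, which chose the members, carry no test. CPM values use TMM factors, and correlations use log2 CPM with a prior count of 2. Named genes are the 6 members, the 3 genes most correlated with each, and called genes of lists by family, to which a few uncalled relatives (Timp2, Nrp1, Atp2b1, Etv4) were added after their values were seen. On simulated data for Th1 against Th0 in KO (21421 genes) the test recovered 16 of 50 genes altered 1.5-fold, 34 of 50 altered 2-fold, 45 of 50 altered 4-fold and 49 of 50 altered 8-fold, and made 1 false call.

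Same-numbered libraries deviated together, with correlations of 0.147 to 0.552 between Th1 and Th0 in KI, 0.185 to 0.494 in KO, 0.1 to 0.398 between Treg and Th0 in KI and 0.107 to 0.286 in KO, so the number was also fitted as a replicate block. The lowest were under 0.1 between Treg and Th1 (0.0816 in KI, 0.0834 in KO), where the block rests on a number only. The same holds between genotypes, where the number was fitted as a block too. Same-numbered KI and KO libraries had mean correlations of -0.087 in Th1, -0.1 in Treg and -0.129 in Th0. Against WT in Treg the means were -0.0861 for KO and 0.0607 for KI. The labels do not say what the number marks. Other alternatives were RLE factors, no filter, only the groups compared, DESeq2 1.42.0, leaving out each library, and leaving out KI 3, KO 2 and WT 4. Floors of 3 counts cover counting error only. Annotation came from GENCODE M21 and promoters from RefSeq.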

Additional observations from a re-analysis of the deposited data

Results flagged for a closer look

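In 13 of the 54 combinations of gene and group, 1 library stood far from the others of its group. The rule was Dixon's ratio on CPM without logs, with critical values of 0.71 for 5 libraries and 0.829 for 4. For a single gene with normally distributed values chance singles out about 1 in 20 groups, but CPM without logs need not be normal. High values stand out more on such a scale than low ones. The 13 are also not independent, since they fall in 6 libraries and the genes vary together within groups, so that share is no measure for them. All 13 were in libraries numbered KI 3, KO 2 or WT 4, and each was the highest of its group. Cd8a was also highest there in 5 of the 6 libraries, but not in Th1 KO 2. Atp2b4 accounted for 6 of them, at 89.2 CPM in Treg KI 3, 136.3 CPM in Treg KO 2, 195 CPM in Treg WT 4, 741 CPM in Th1 KO 2, 77.5 CPM in Th0 KI 3 and 176 CPM in Th0 KO 2. Timp1 accounted for 4, at 2.49 CPM in Treg KO 2, 11.1 CPM in Treg WT 4, 4.47 CPM in Th0 KI 3 and 3.05 CPM in Th0 KO 2. Slc4a11 stood apart at 192 CPM in Treg KI 3 and 86.03 CPM in Th0 KI 3, and Sema3b at 12.3 CPM in Th0 KI 3. In the Treg cultures the same 3 libraries had 47.3 to 62.7 CPM of Tbx21 against 0.5998 to 38.4 CPM in the other 12, and 157 to 846 CPM of Ifng against 0.623 to 78.7 CPM. Il13, a Th2 cytokine gene, was 0.719 to 7.76 CPM there against 0 to 2.19 CPM. Summed B cell markers were the highest of the group in KI 3, KO 2 and WT 4 in the Th1 and Th0 cultures. Those sums ran from 491 CPM (Th1 KO 2) to 2028 CPM (Th0 KI 3). In Treg cultures this held for KI 3 (1322 CPM) but not for KO 2 or WT 4. The part of CD8 T cells, B cells or Th1-type cells in these values was not tested.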

How the results depend on the processing

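For the 6 genes, 377 of 378 alternative values in Th1 against Th0 and Treg against Th1 kept their direction and stayed past the threshold, and the 1 lost call was Sema3b in KI without Th0 KI library 1. Of 810 values in the other comparisons 773 kept their side, 28 turned and 9 newly passed, and the causes were not tested. Counts of genes called for Th1 against Th0 in KI were 826 with no filter and 390 to 1577 with a library left out, the lowest without Th0 KI library 1, and in KO 3707 with only the groups compared and 1196 to 2812 with a library left out. The replicate block gave 2391 genes in KI and 3984 in KO for Th1 against Th0. It gave 1 member called in KI and 2 in KO for Treg against Th0, and it changed no other call of a member. Members called for Treg against Th0 were 1 in KI and 3 in KO without KI 3, KO 2 and WT 4, and 0 to 2 and 1 to 2 with a library left out.

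Between genotypes in Treg cultures the genes called for KO against WT were 0 with only the groups compared, 226 without KI 3, KO 2 and WT 4, 166 by DESeq2 and 2 to 195 with a library left out. For KI against WT they were 5 by DESeq2 and 0 to 2, and for KI against KO 3 with only the groups compared, 13 without those libraries, 59 by DESeq2 and 0 to 5. For KI against KO in Th0 the higher genes were 83 by DESeq2 and 0 to 203 with a library left out, and the lower genes 32 and 0 to 65, both most without Th0 KI library 4; in Th1 DESeq2 called 42. The Th1 rise differed between KI and KO for 5 genes by DESeq2.

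Slc4a11 in KO against WT Treg was near 0 and became -0.00355 with RLE factors, -0.00484 with only the groups compared and -0.00283 by DESeq2. Without KI 3, KO 2 and WT 4, Timp1 was -0.56 and Sema3b -0.0598 in KI against KO Th0, and Timp1 was 0.93 and Slc4a11 -0.0423 in KI against KO Treg. With a library left out, the log2 values that changed sign ranged as follows. For Treg against Th0, Sema3b was -1.65 to 0.0701 in KI and -0.97 to 0.29 in KO. For KO against WT in Treg, Timp1 was -3.89 to 0.80, Sema3b -0.22 to 1.83, Atp2b4 -0.71 to 0.42 and Slc4a11 -0.25 to 0.45. For KI against WT in Treg, Timp1 was -2.96 to 0.24 and Slc4a11 -0.21 to 1.18. For KI against KO, Timp1 was -1.21 to 0.93 and Atp2b4 -3.75 to 0.63 in Th0, Atp2b4 was -0.19 to 0.0286 in Th1, and Timp1 was -0.98 to 1.34 and Slc4a11 -0.20 to 0.99 in Treg. For the Th1 rise in KI minus that in KO, Timp1 was -2.08 to 0.0614, Atp2b4 -0.74 to 3.64 and Etv5 -0.60 to 0.0321.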
